A study of Mus musculus with 8 samples.

Results

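Interleukins and their receptors, together with the ligands and receptors of the tumour necrosis factor (TNF) superfamily, were followed in mouse bone marrow-derived macrophages stimulated for 6 h. The genes were chosen by symbol: every gene on the array named as an interleukin or interleukin receptor, or as a member of the TNF ligand or TNF receptor superfamily, except Il1a, Il1b, Il1rn and Il18. Of 99 such genes, read by 144 probes, 42 were kept because their brightest probe exceeded an intensity of 200, a floor just over the array's background, in both arrays of some group. The kept genes comprised 7 interleukin ligands of 31 on the array, 5 TNF superfamily ligands of 11, 18 interleukin receptor chains of 35, 10 TNF receptor superfamily members of 20, the soluble binding protein gene Il18bp and the enzyme gene Il4i1.

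The macrophages came from C57BL/6 marrow and were grown in medium conditioned by L929 fibroblasts, which secrete the growth factor M-CSF. There were 4 groups of 2 arrays each: interferon gamma (IFNγ, 10 ng/ml) together with sheep red blood cells opsonised with a mouse IgG2a antibody (10 red cells per macrophage), IFNγ alone, opsonised red cells alone, and unstimulated cells. All groups had the same conditioned medium. No group with uncoated red cells was analysed here, so the antibody and the red cells cannot be told apart. Of 10 macrophage markers, 7 were on the array and all 7 lay above the floor, including Adgre1, Itgam and Lyz2, and their summed intensity, most of it from Lyz2, spanned 45878 to 53359 over the groups. Within that sum Cd14 had 3569.3 and 3231.5 with IFNγ, against 8953.9 and 7677.7 in unstimulated cells, and Fcgr3 had 12071.9 and 12170.2 with IFNγ, against 5686.4 and 6287.6 in unstimulated cells. By the same rule of both arrays of a group, none of 8 T and NK cell markers and none of 5 dendritic cell markers lay above it, and of the other lists 2 of 4 B cell, 3 of 5 neutrophil, 1 of 5 mast cell and basophil, 1 of 5 fibroblast and 0 of 3 erythroid markers did. Over the 8 arrays the summed intensity of the 8 T and NK cell markers ranged from 1339 to 1426.

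Interleukins and TNF superfamily ligands are the soluble or membrane-bound signals by which leukocytes instruct each other. Most interleukin receptors pair a ligand-binding chain with a shared chain and signal through JAK kinases and STAT transcription factors, whereas the receptors of the IL-1 and IL-17 families use MyD88- or Act1-type adaptors. TNF receptor superfamily members bind trimeric ligands and recruit TRAF or death domain adaptors, which lead to NF-κB activation or to cell death. Macrophages both make these signals and respond to them, and IFNγ is a classical activator of that exchange.

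Promoter sequence was examined for the genes that the RefSeq promoter table of build GRCm38.p6 holds, which were 30 of the 42 genes with 35 start sites. Each window covered the 250 bases before the start. The 5 windows shown are those of genes whose level changed with a stimulus and that hold one of 2 interferon-related motifs. Windows without either motif are not shown, among them those of Il13ra1, Tnfrsf12a and both starts of Il15ra, genes that rose with IFNγ. Il10ra, Il12rb1, Il15 and Il27, which also rose with IFNγ, are not in the promoter table. Of the genes shown, Il7r and Tnfrsf1b were lower with IFNγ. Capitals mark a gamma-activated site, TTCNNNGAA, a palindromic element named for its role in the response to IFNγ, or an interferon-stimulated response element, read as GAAA, any 2 bases and GAAA on either strand. Where both occur they do not overlap. Tnfrsf1a lies at chr6:125349473-125349722 on the plus strand, Tnfrsf1b at chr4:145246871-145247120 on the minus strand, Il12rb2 at chr6:67376189-67376438 on the minus strand, Il7r at chr15:9529877-9530126 on the minus strand and the second start of Tnfsf13b at chr8:10006383-10006632 on the plus strand.
Tnfrsf1a: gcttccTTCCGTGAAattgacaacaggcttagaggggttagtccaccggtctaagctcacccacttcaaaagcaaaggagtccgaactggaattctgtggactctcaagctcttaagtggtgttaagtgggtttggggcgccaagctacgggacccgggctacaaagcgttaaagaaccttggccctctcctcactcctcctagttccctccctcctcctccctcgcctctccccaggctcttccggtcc
Tnfrsf1b: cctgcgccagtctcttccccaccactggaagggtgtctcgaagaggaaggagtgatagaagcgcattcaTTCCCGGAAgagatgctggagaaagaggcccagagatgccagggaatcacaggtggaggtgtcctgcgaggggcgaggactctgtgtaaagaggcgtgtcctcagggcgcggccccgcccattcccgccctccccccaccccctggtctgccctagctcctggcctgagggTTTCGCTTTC
Il12rb2: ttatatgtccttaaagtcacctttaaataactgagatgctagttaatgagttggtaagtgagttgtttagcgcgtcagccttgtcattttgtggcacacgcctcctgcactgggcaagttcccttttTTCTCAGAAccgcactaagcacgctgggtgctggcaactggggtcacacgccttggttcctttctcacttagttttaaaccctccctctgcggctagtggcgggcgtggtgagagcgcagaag
Il7r: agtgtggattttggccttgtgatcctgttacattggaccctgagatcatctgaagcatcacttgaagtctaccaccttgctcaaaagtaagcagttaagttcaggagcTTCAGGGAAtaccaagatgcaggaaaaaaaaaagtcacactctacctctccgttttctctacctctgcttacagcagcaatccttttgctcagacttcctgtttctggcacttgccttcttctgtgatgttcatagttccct
Tnfsf13b: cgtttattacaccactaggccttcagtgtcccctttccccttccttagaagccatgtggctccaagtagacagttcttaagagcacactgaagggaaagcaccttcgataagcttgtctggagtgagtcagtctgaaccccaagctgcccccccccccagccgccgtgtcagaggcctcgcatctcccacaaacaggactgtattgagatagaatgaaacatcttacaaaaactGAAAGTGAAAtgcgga
The first base of the gamma-activated match lay 244 bases before the start in Tnfrsf1a, 181 in Tnfrsf1b, 123 in Il12rb2 and 142 in Il7r. The response element match lay 10 bases before the start in Tnfrsf1b and 16 in Tnfsf13b. These 4 genes with the first motif and 2 with the second stand beside 7.02% and 2.98% of all 32851 promoters in the table. A further motif, the NF-κB consensus, was present in 2 of the 30 genes, Il16 and Il1r1, and in 3.9% of all promoters. A match describes letters in the window and is not evidence of a bound factor.

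Signal set limits on what could be seen. Of the 42 genes, 16 had a group mean above 400, 5 had one above 1000, and 20 stayed under 300 on all 8 arrays. Among the 12 ligands 3 passed 400 in some group and 8 stayed under 300, against 13 and 12 of the 28 receptors. The deposited intensities keep their background, so changes of dim genes are understated. Where neither array of a group passed 200, the change is a lower bound and is given as "at least". Just inside the floor lay Il1rl2, Il17a and Tnfrsf26, with 202, 201.4 and 200 on the dimmer array of their brightest group. Just outside lay Il20ra, Il2ra and Il33, with 199.7, 198.6 and 196.7. Il10, Il12a and Il6 were among the 57 genes not kept, and Il6 reached 211.7 on 1 of the 8 arrays.

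IFNγ alone moved both signals and receptors. Of the 42 genes, 17 differed from unstimulated cells (12 higher, 5 lower), which is 40.5% of them, against 21.8% of all 9341 features tested (9.45% higher, 12.4% lower). Of the 12 ligands 5 rose and none fell, and of the 28 receptors 7 rose and 5 fell. Of the 12 genes that rose, 5 (Il27, Tnfsf9, Tnfsf10, Il12rb1 and Il12rb2) had neither unstimulated array above the floor and were kept only through stimulated groups, where they are high, so their direction is no support for a count of rising genes. The same holds for Il15ra, which had 1 unstimulated array above the floor but passed the rule only in groups with IFNγ. The median log2 change of the 42 genes was 0.01, against -0.04 over all features. The genes called lower were 2 with either IFNγ array left out and 1 without the first unstimulated array, which left 10 calls in all. Centred on the median level of 7 housekeeping genes, which was that of Hprt, the median of all features moved to -0.79 and the count to 30 (4 higher, 26 lower), and Il15 and Il15ra changed sign. Tests are limma's on log2 intensity with Benjamini-Hochberg adjustment over all features, called at an adjusted p under 0.05, and values after ± are standard errors of the log2 change.

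With opsonised red cells alone the share of these genes called was near that of all features. The test called 4 of 42 (3 higher, 1 lower), or 9.52%, against 12.2% of all features (6.06% higher, 6.17% lower). All 4 were receptors, 14.3% of the 28, which is near the 12.2% of all features. Of the 12 ligands none passed the test, and the 2 classes were not compared by a test. The 3 that rose, Tnfrsf1a, Tnfrsf1b and Tnfrsf21, belong to the TNF receptor superfamily, and the 1 that fell was the IL-10 receptor chain gene Il10rb. The median log2 change was -0.03, against -0.01 over all features. With either unstimulated array left out 2 genes were called, and with the housekeeping centring none.

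With both stimuli 19 of the 42 genes differed from unstimulated cells (12 higher, 7 lower), or 45.2%, against 35.1% of all features (14.5% higher, 20.6% lower). Ligands gave 4 higher and 1 lower of 12, and receptors 7 higher and 6 lower of 28, with 4 of those higher (Il27, Tnfsf9, Il12rb1 and Tnfrsf4) under the floor on both unstimulated arrays. Il15ra was kept only through groups with IFNγ, so its direction and theirs are no support for a count of rising genes. The median log2 change was 0.15, against -0.03 over all features, and the housekeeping centring gave 31 calls (3 higher, 28 lower). All 3 comparisons share the unstimulated arrays. The changes of every gene called in any of them are plotted by role.

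**Figure D1:**
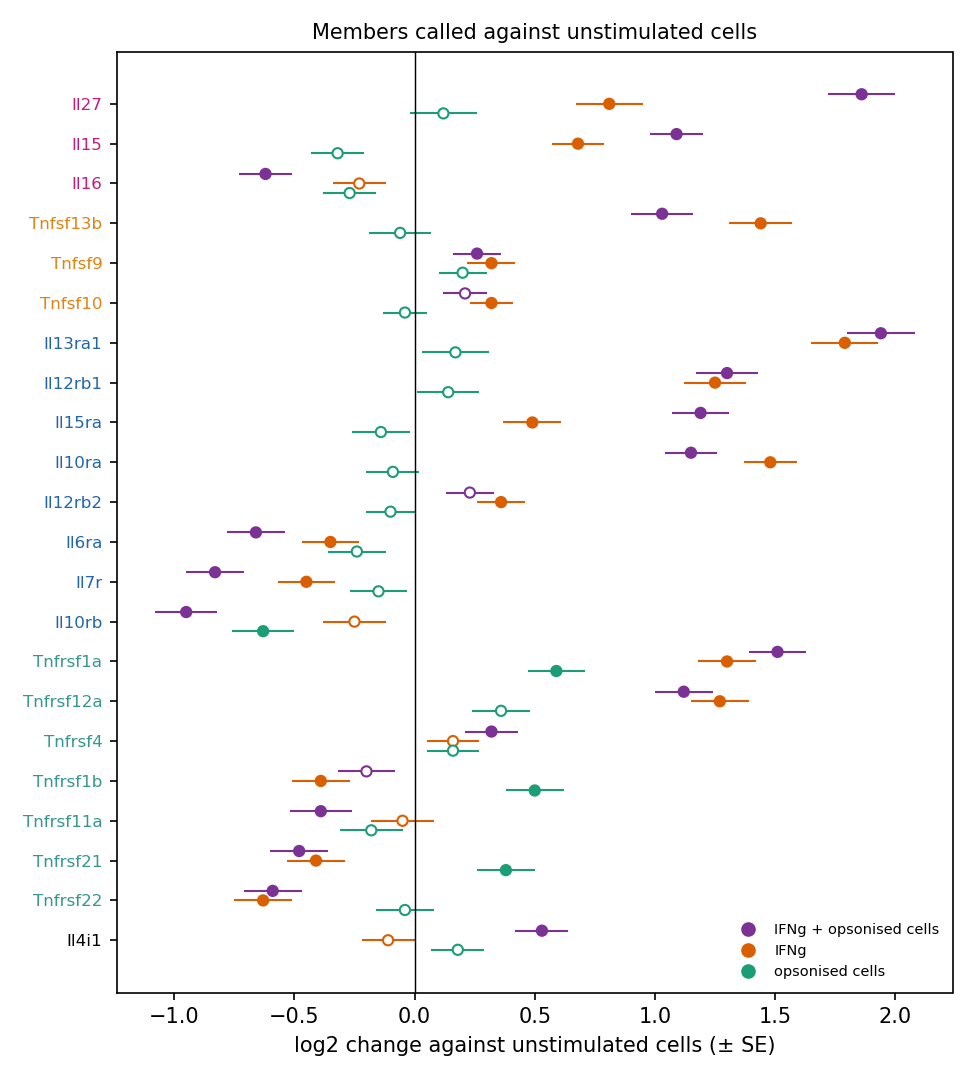
Log2 change against unstimulated cells (horizontal axis) of the 22 genes called in at least 1 of the 3 comparisons, with bars of ± 1 standard error and 2 arrays per group. Filled points passed the adjusted p of 0.05 and open points did not. Il13ra1, Il27 and Tnfrsf1a lie farthest to the right with both stimuli, at 1.94, 1.86 and 1.51, and Il10rb farthest to the left, at -0.95.

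Adding opsonised cells to IFNγ changed 8 of the 42 genes (4 higher, 4 lower), or 19%, against 13.9% of all features (6.47% higher, 7.47% lower). Ligands gave 2 higher and 2 lower of 12, and receptors 1 higher and 2 lower of 28. The count was 4 without the first array with both stimuli, 5 with either IFNγ array left out and 1 with the housekeeping centring. Adding IFNγ to opsonised cells changed 18 (12 higher, 6 lower), or 42.9%, against 27.6% of all features (11.3% higher, 16.3% lower). There ligands gave 4 higher and 1 lower of 12, and receptors 7 higher and 5 lower of 28. Among the higher genes, Il27, Tnfsf10, Il12rb1, Il12rb2 and Il15ra were kept only through groups with IFNγ, where they are high. Their direction is no support for a count of rising genes. No test compared ligands with receptors as classes.

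The interaction asks whether the effect of opsonised cells depended on IFNγ: it is their log2 change on top of IFNγ, minus their log2 change in cells without it. It was called for 3 of 42 genes, all higher, or 7.14%, against 2.42% of all features (1.12% higher, 1.3% lower). These were the ligand genes Il15 and Il27 and the receptor gene Il15ra, each with a fitted change with both stimuli above the added fitted single changes. For Il27 all opsonised and unstimulated arrays lay under the floor, and for Il15ra only 1 unstimulated array passed it. Their single change with opsonised cells was therefore not measured, and a departure from the sum is not shown for these genes. Il27 and Il15ra were kept only through groups with IFNγ, where they are high, so their direction is no support for this share. The count was 1 without the first array of IFNγ, of opsonised cells or of unstimulated cells. None of the 10 TNF receptor superfamily genes was called in it, and the housekeeping centring left none of the 42.

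**Figure D2:**
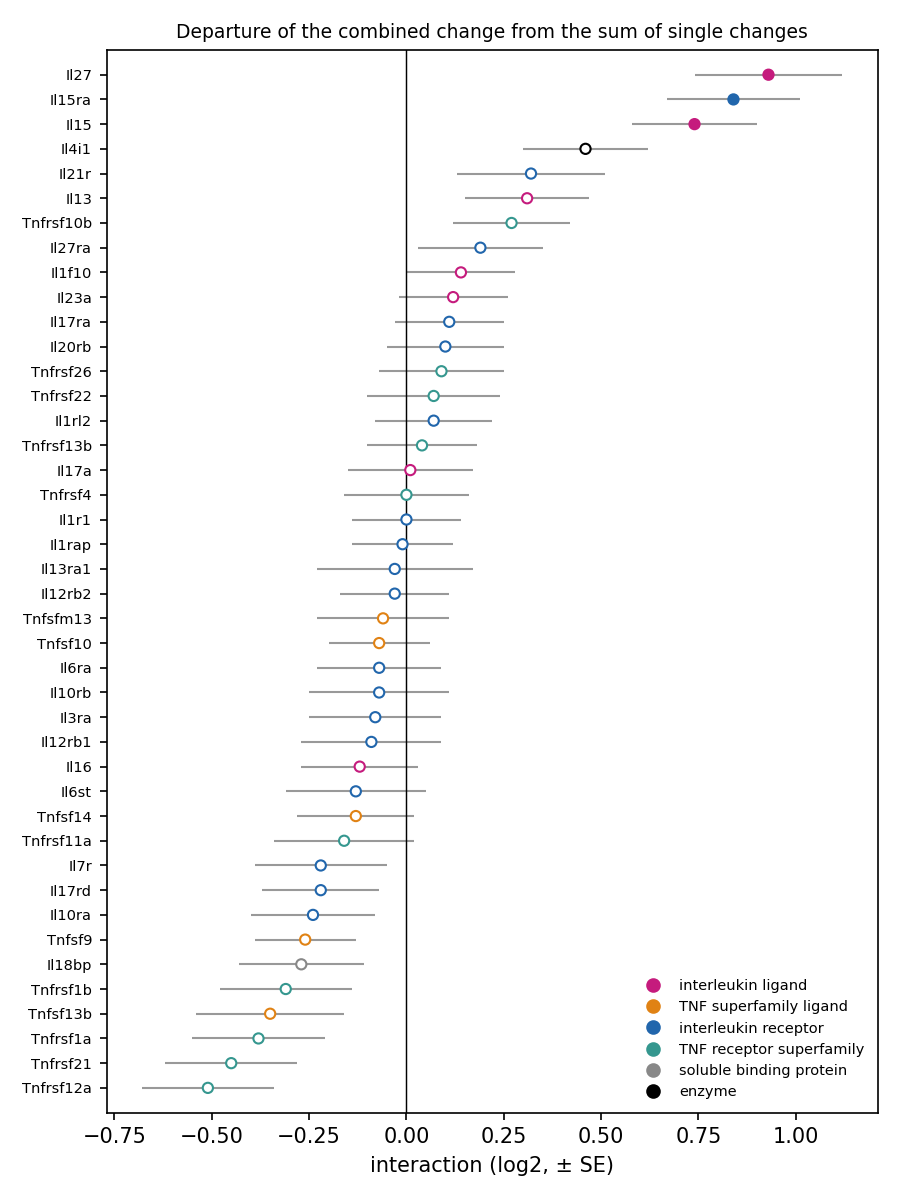
Interaction in log2 units (horizontal axis) of all 42 genes, ordered by value and coloured by role, with bars of ± 1 standard error. Only Il27 (0.93), Il15ra (0.84) and Il15 (0.74), drawn as filled points, passed the adjusted p of 0.05.

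Among the interleukin ligands, Il15 encodes a cytokine that sustains NK cells and memory CD8 T cells. Its intensity was 2643.9 and 2349.3 with both stimuli, 1843.6 and 1900 with IFNγ, 906.2 and 964.6 with opsonised cells, and 1156.5 and 1184.5 in unstimulated cells. The 4 groups did not overlap, with both stimuli highest and opsonised cells alone lowest. Against unstimulated cells Il15 rose by 0.68 ± 0.11 with IFNγ (1.6-fold, adjusted p = 5.04e-05) and by 1.09 ± 0.11 with both (2.13-fold, adjusted p = 2.33e-08), while its value with opsonised cells alone was -0.32 ± 0.11 (adjusted p = 0.0566). Both stimuli exceeded IFNγ alone by 0.41 ± 0.11 (adjusted p = 0.0119), which was not called without the first array with both stimuli or with either IFNγ array left out. The interaction was 0.74 ± 0.16 (adjusted p = 0.00877). It missed the threshold without the first array with both stimuli, without the first IFNγ array or without the second unstimulated array (adjusted p = 0.0546, 0.0667 and 0.0553).

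Il15ra encodes the chain that holds IL-15 on the cell surface and presents it to neighbouring lymphocytes, so ligand and receptor act from the same cell. Intensity was 391.4 and 511.9 with both stimuli, 275.6 and 275.5 with IFNγ, 167.5 and 190.4 with opsonised cells, and 201.6 and 191.7 in unstimulated cells. Both stimuli gave the highest values and IFNγ alone the next, and the groups without IFNγ lay at the floor. Il15ra rose by 0.49 ± 0.12 with IFNγ (adjusted p = 0.00477, and 0.0585 without the second unstimulated array) and by 1.19 ± 0.12 with both (2.28-fold, adjusted p = 3.21e-08), and both stimuli exceeded IFNγ alone by 0.70 ± 0.12 (adjusted p = 0.000214). These changes were smaller on the other 3 probes, at 0.66 to 0.77 with both, 0.15 to 0.39 with IFNγ and 0.37 to 0.56 for both over IFNγ. Over opsonised cells alone the level with both stimuli was at least 2.24-fold higher on the brightest probe. The interaction, 0.84 ± 0.17 (adjusted p = 0.00712), was 0.25 to 0.35 on the other 3 probes of the gene. With the mean of its probes it was 0.44 (adjusted p = 0.0787), and it missed the threshold without the first array with opsonised cells or the first unstimulated array (adjusted p = 0.0515 and 0.0508).

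Il27 encodes the alpha subunit of IL-27, which pairs with the product of Ebi3 and limits or directs T cell responses. Its intensity was 625.2 and 562.2 with both stimuli, 239.6 and 345.5 with IFNγ, 170.6 and 184.6 with opsonised cells, and 173.3 and 154.7 in unstimulated cells. Signal above the floor was present in the groups with IFNγ and was highest with both stimuli. The level was at least 2.96-fold higher with both stimuli than in unstimulated cells (fitted log2 change 1.86 ± 0.14, adjusted p = 1.06e-10), and at least 1.44-fold higher with IFNγ (0.81 ± 0.14, adjusted p = 7.49e-05). Both stimuli exceeded IFNγ alone by 1.04 ± 0.14 (2.06-fold, adjusted p = 5.67e-06). The interaction of 0.93 ± 0.19 (adjusted p = 0.00765) rests on opsonised and unstimulated arrays that were all under the floor. It missed the threshold without the first IFNγ array (0.66, adjusted p = 0.0947), without the first array with opsonised cells (adjusted p = 0.0511) or without the first unstimulated array (adjusted p = 0.0702).

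The partner gene Ebi3 rose by 0.34 ± 0.11 with both stimuli against unstimulated cells and by 0.54 ± 0.11 against IFNγ alone, and its interaction of 0.41 ± 0.15 was not called. The receptor gene Il27ra stayed between 190.7 and 258.2 on all arrays and was not called in any comparison.

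Il16, whose product attracts CD4-bearing cells, moved the other way. It had 205.8 and 224.9 with both stimuli, 281.8 and 283.3 with IFNγ, 279.3 and 268.9 with opsonised cells, and 324.3 and 338.1 in unstimulated cells. The level with both stimuli was below all other groups, and it fell by 0.62 ± 0.11 on the log2 scale against unstimulated cells (adjusted p = 6.68e-05) and by 0.39 ± 0.11 against IFNγ alone (adjusted p = 0.0149). The remaining interleukin ligands, Il13, Il17a, Il1f10 and the IL-23 subunit gene Il23a, lay between 166.5 and 267.5 on every array and were not called in any of the 6 comparisons.

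Of the TNF superfamily ligands, Tnfsf13b encodes BAFF, the survival factor of B cells. Intensity was 643.7 and 622.5 with both stimuli, 810.7 and 867.7 with IFNγ, 253.7 and 350.8 with opsonised cells, and 311.6 and 308.8 in unstimulated cells. The highest values were those with IFNγ alone, and opsonised and unstimulated arrays overlapped. Tnfsf13b rose by 1.44 ± 0.13 with IFNγ (2.7-fold, adjusted p = 1.31e-08) and by 1.03 ± 0.13 with both (2.04-fold, adjusted p = 1.47e-06). Both stimuli gave a level 0.41 ± 0.13 below IFNγ alone on the log2 scale (a change of -0.41, adjusted p = 0.0463), a call that 9 of 17 alternative analyses did not keep, among them each that left out 1 array of these groups. Its second probe gave 1.45 with IFNγ and -0.48 for that difference. The response element printed above lies before the second start of this gene, and the window of its first start holds none.

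Tnfsf10, which encodes the death ligand TRAIL, and Tnfsf9, a co-stimulatory ligand for T cells, were at least 1.08-fold and 1.13-fold higher with IFNγ (fitted log2 change 0.32 each, SE 0.09 and 0.10, adjusted p = 0.0123 and 0.0174). All arrays of these genes lay between 164.2 and 236, close to the floor. With both stimuli only Tnfsf9 was called, at least 1.08-fold higher (fitted log2 change 0.26 ± 0.10, adjusted p = 0.0392). Tnfsf14, the gene of the ligand LIGHT, and Tnfsfm13, a readthrough of neighbouring ligand genes, were not called. Among the receptor genes of these ligands, Tnfrsf13b, a BAFF receptor, lay between 182.9 and 218.2, and Tnfrsf10b, the TRAIL receptor of the mouse, between 233.1 and 278.5, and neither was called.

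**Figure D3:**
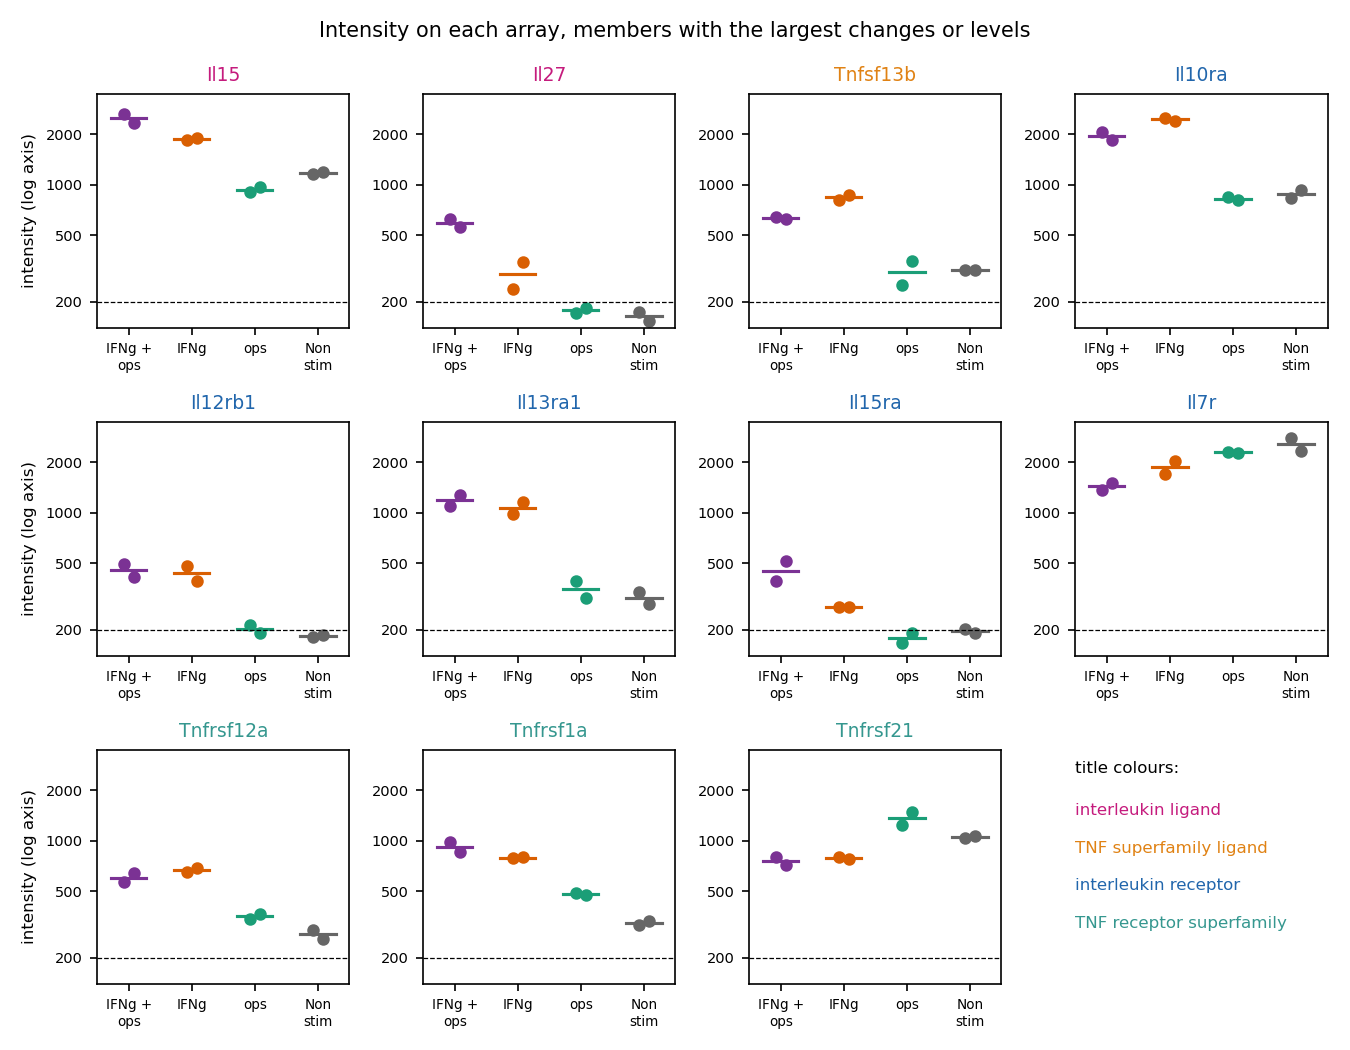
Intensity (vertical axis, log scale) on each of the 2 arrays per group for the 11 genes called with an absolute log2 change of at least 1 or among the 5 with the highest mean intensity, with the group mean as a bar and the floor of 200 as a dashed line. "Ops" stands for opsonised red cells. Il13ra1, Il10ra, Tnfrsf12a and Tnfsf13b are high in both groups with IFNγ, whereas Il15, Il15ra and Il27 are highest with both stimuli.

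Among the interleukin receptor chains, Il13ra1, which forms the IL-13 and type II IL-4 receptor with another chain, had 1102 and 1270.1 with both stimuli, 983.2 and 1164.1 with IFNγ, 393.7 and 308.3 with opsonised cells, and 335.8 and 284.1 in unstimulated cells. The groups with IFNγ overlapped each other and lay above both groups without it. Il13ra1 rose by 1.94 ± 0.14 with both stimuli (3.83-fold, adjusted p = 6.22e-11) and by 1.79 ± 0.14 with IFNγ (3.46-fold, adjusted p = 4.13e-10), and its value with opsonised cells was 0.17 ± 0.14. Neither its interaction of -0.03 ± 0.20 nor the difference of 0.15 ± 0.14 between both stimuli and IFNγ alone was called.

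The IL-10 receptor chains moved in opposite directions with both stimuli. Il10ra, the ligand-binding chain, had 2062.9 and 1846.7 with both stimuli, 2511.4 and 2399.2 with IFNγ, 848.4 and 805.4 with opsonised cells, and 833.8 and 929.4 in unstimulated cells. It rose by 1.48 ± 0.11 with IFNγ (2.79-fold, adjusted p = 3.26e-10) and by 1.15 ± 0.11 with both (2.22-fold, adjusted p = 1.49e-08). The arrays with both stimuli lay below those with IFNγ alone, by -0.33 ± 0.11, which missed the threshold (adjusted p = 0.0524). Il10rb, the chain shared with the IL-22 and interferon lambda receptors, had 480.6 and 514.5 with both stimuli, 739.1 and 880.7 with IFNγ, 615.7 and 624.8 with opsonised cells, and 1062.7 and 864.8 in unstimulated cells. Both groups with opsonised cells were below both groups without them. Il10rb fell by 0.63 ± 0.13 on the log2 scale with opsonised cells (adjusted p = 0.00134), by 0.95 ± 0.13 with both stimuli (adjusted p = 2.11e-06) and by 0.70 ± 0.13 when opsonised cells were added to IFNγ (adjusted p = 0.00034), and its value with IFNγ alone was -0.25 ± 0.13.

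Il12rb1, the chain common to the IL-12 and IL-23 receptors, had 494.5 and 410.6 with both stimuli, 482.1 and 390.8 with IFNγ, 213.9 and 190.3 with opsonised cells, and 180.3 and 186 in unstimulated cells. Signal stood clear of the floor only in the groups with IFNγ. It was at least 2.25-fold higher with both stimuli (adjusted p = 1.32e-08) and at least 2.17-fold higher with IFNγ (adjusted p = 4.7e-08) than in unstimulated cells. Its second probe gave fitted log2 changes of 0.85 and 0.70 in place of 1.30 and 1.25. Il12rb2, the chain specific to IL-12, was at least 1.17-fold higher with IFNγ (0.36 ± 0.10, adjusted p = 0.0076), with no array above 241.1.

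Il7r, the IL-7 receptor alpha chain best known from lymphocytes, had 1374.8 and 1501.6 with both stimuli, 1699.4 and 2033.2 with IFNγ, 2311.8 and 2280.8 with opsonised cells, and 2780.9 and 2332.7 in unstimulated cells. Every array with IFNγ lay below every array without it. The gene fell by 0.83 ± 0.12 on the log2 scale with both stimuli (adjusted p = 5.17e-06) and by 0.45 ± 0.12 with IFNγ (adjusted p = 0.00637, but 0.153 without the first IFNγ array and 0.135 without the first unstimulated array), and it was lower with both stimuli than with IFNγ alone, by -0.37 ± 0.12 (adjusted p = 0.0367). This last call was not kept by 8 of 17 alternative analyses, among them those that left out either array with both stimuli or the second IFNγ array, and the second Il7r probe above the floor gave -0.09 for it and -0.28 for IFNγ. The T and NK cell markers, none of which passed the floor on both arrays of any group, had summed intensities of 1382 and 1385 with both stimuli. Those sums were 1409 and 1417 with IFNγ, 1339 and 1370 with opsonised cells, and 1404 and 1426 in unstimulated cells. The B cell markers, of which Cd79b and Ms4a1 passed it, had sums of 826 and 832 with both stimuli. Their sums were 914 and 919 with IFNγ, 831 and 855 with opsonised cells, and 862 and 893 in unstimulated cells. The cell source of the Il7r signal was not tested.

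Il6ra, the IL-6-binding chain, fell by 0.66 ± 0.12 with both stimuli (adjusted p = 7.08e-05) and by 0.35 ± 0.12 with IFNγ (adjusted p = 0.0341) on the log2 scale. Its intensity was 229 and 243.6 with both stimuli, 298.2 and 290.6 with IFNγ, 344.2 and 290.5 with opsonised cells, and 366 and 382.8 in unstimulated cells. The signalling chain of the same receptor, Il6st, was not called (0.30 ± 0.13 with IFNγ, adjusted p = 0.0996). The other 10 interleukin receptor genes kept were not called in any comparison: the IL-1 family receptors Il1r1, Il1rap and Il1rl2, the IL-17 receptors Il17ra and Il17rd, and Il20rb, Il21r, Il27ra and Il3ra, together with Il6st. Among them only Il3ra, the IL-3 receptor alpha chain, was well above the floor, at 422.7 to 541.5.

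Both receptors of TNF itself were above the floor in every group. Tnfrsf1a, the death domain receptor found on most cells, had 977.4 and 855.7 with both stimuli, 786.3 and 799.9 with IFNγ, 488.9 and 475.9 with opsonised cells, and 313.5 and 329.7 in unstimulated cells. The groups did not overlap, and each stimulus alone lay above unstimulated cells. The gene rose by 1.51 ± 0.12 with both stimuli (2.84-fold, adjusted p = 3.12e-10), by 1.30 ± 0.12 with IFNγ (2.47-fold, adjusted p = 6.79e-09) and by 0.59 ± 0.12 with opsonised cells (1.5-fold, adjusted p = 0.00128). Its other 2 probes gave 1.03 and 1.14 with both, 1.01 and 1.19 with IFNγ, and 0.18 and 0.27 with opsonised cells.

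Tnfrsf1b, the second TNF receptor, which recruits TRAF2 and lacks a death domain, had 287.7 and 318.1 with both stimuli, 269.2 and 260.5 with IFNγ, 488.7 and 492.2 with opsonised cells, and 374.8 and 320.9 in unstimulated cells. The arrays with opsonised cells alone were the highest and those with IFNγ alone the lowest. It rose by 0.50 ± 0.12 with opsonised cells (adjusted p = 0.00581), fell by 0.39 ± 0.12 on the log2 scale with IFNγ (adjusted p = 0.0197) and was lower with both stimuli than with opsonised cells alone, by -0.70 ± 0.12 (adjusted p = 7.33e-05). Its second probe gave 0.21 with opsonised cells, -0.43 with IFNγ and -0.38 for both stimuli over opsonised cells. Both receptor promoters hold a gamma-activated match in the windows printed above, and Tnfrsf1b a response element as well.

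Tnfrsf21, which encodes death receptor 6, had the same order of signs as Tnfrsf1b for the single stimuli. Its intensity was 795.3 and 711.9 with both stimuli, 799.9 and 778.3 with IFNγ, 1247.9 and 1491.3 with opsonised cells, and 1031.5 and 1065.7 in unstimulated cells. The highest group was opsonised cells alone, and the groups with IFNγ were lowest and overlapped. The gene rose by 0.38 ± 0.12 with opsonised cells (adjusted p = 0.0377), a call that 8 of 17 alternative analyses did not keep, and fell by 0.41 ± 0.12 on the log2 scale with IFNγ (adjusted p = 0.0139), which 5 did not keep. Each call was lost when any 1 of the IFNγ or unstimulated arrays was left out, and the first also without the second array with opsonised cells. With both stimuli it was 0.86 ± 0.12 lower than with opsonised cells alone (a change of -0.86, adjusted p = 4.86e-06). The second probe of the gene, near the floor, gave 0.14 with opsonised cells and -0.06 with IFNγ.

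Tnfrsf12a, the receptor of the ligand TWEAK, had 563.5 and 641.6 with both stimuli, 648.1 and 685.2 with IFNγ, 342.7 and 367 with opsonised cells, and 292.2 and 260.9 in unstimulated cells. It rose by 1.12 ± 0.12 with both (2.18-fold, adjusted p = 7.54e-08) and by 1.27 ± 0.12 with IFNγ (2.41-fold, adjusted p = 1.77e-08), and its value with opsonised cells, 0.36 ± 0.12, missed the threshold (adjusted p = 0.0549). The ligand gene Tnfsf12 was not kept, with 199.5 as its highest array. Tnfrsf22, a decoy receptor for TRAIL in the mouse, fell by 0.63 ± 0.12 on the log2 scale with IFNγ (adjusted p = 0.000266) and by 0.59 ± 0.12 with both (adjusted p = 0.000279), and its value with opsonised cells was -0.04 ± 0.12. Its groups with IFNγ spanned 352.4 to 377, against 532.7 to 583.6 in the groups without IFNγ. Another probe of the gene, near the floor, gave -0.20 with IFNγ and -0.07 with both.

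With both stimuli Tnfrsf4, the co-stimulatory receptor OX40, was at least 1.12-fold higher (0.32 ± 0.11, adjusted p = 0.0248), and Tnfrsf11a, which encodes the osteoclast-inducing receptor RANK, fell by 0.39 ± 0.13 on the log2 scale (adjusted p = 0.019). No array of Tnfrsf4 passed 228.4, and those of Tnfrsf11a lay between 290.4 and 443. Of the 10 kept TNF receptor superfamily genes, Tnfrsf10b, Tnfrsf13b and Tnfrsf26 were not called in any comparison.

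Il4i1 encodes a secreted amino acid oxidase and is named for its induction by IL-4. It had 307.8 and 277.7 with both stimuli, 172.9 and 203.6 with IFNγ, 248.6 and 213.3 with opsonised cells, and 204.1 and 202.1 in unstimulated cells. The arrays with both stimuli lay above all others. The gene rose by 0.53 ± 0.11 with both stimuli against unstimulated cells (adjusted p = 0.000561) and by 0.64 ± 0.11 against IFNγ alone (adjusted p = 0.000198), and its interaction of 0.46 ± 0.16 was not called (adjusted p = 0.14). Il18bp, the soluble antagonist of IL-18, lay between 260.2 and 317.8 and was not called.

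**Figure D4:**
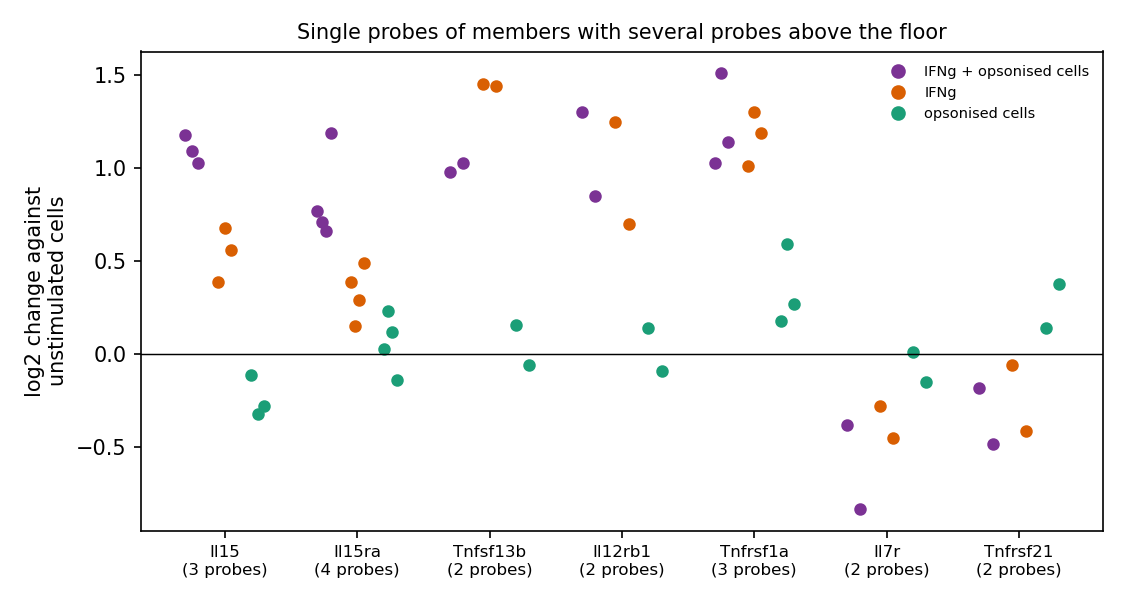
Log2 change against unstimulated cells (vertical axis) of every probe above the floor, for the 7 genes, of the 11 plotted array by array, that have several such probes, each point being 1 probe. Probes of 1 gene share a direction with both stimuli and with IFNγ but differ in size. With opsonised cells those of Il15ra, Tnfsf13b, Il12rb1 and Il7r fall on both sides of 0.

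Genes of the same pathways that carry other symbols were counted from 4 lists. Of 15 TNF family genes with other symbols, 8 were tested. With IFNγ 4 rose and none fell, with opsonised cells 3 rose and none fell, and with both 4 rose and none fell, beside 21.8%, 12.2% and 35.1% of all features called in these comparisons. Cd40, the co-stimulatory receptor through which T cells activate macrophages, rose by 4.54 ± 0.11, 0.76 ± 0.11 and 5.82 ± 0.11 with IFNγ, opsonised cells and both. Tnf, the ligand of Tnfrsf1a and Tnfrsf1b, rose by 2.74 ± 0.11, 1.53 ± 0.11 and 3.85 ± 0.11 in the same comparisons, and the death receptor gene Fas by 1.58 ± 0.11, 1.36 ± 0.11 and 2.71 ± 0.11. Unlike its receptor Tnfrsf1b, Tnf was called higher in every comparison of single stimuli with unstimulated cells. Ltbr, the lymphotoxin beta receptor gene, rose by 0.47 ± 0.11 with IFNγ and by 0.37 ± 0.11 with both. The list's median log2 changes were 0.32, 0.07 and 0.27, against -0.04, -0.01 and -0.03 over all features.

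Of 18 TNF receptor adaptors and regulators, 11 were tested. With IFNγ 2 rose and 1 fell, with opsonised cells 3 rose, and with both 8 rose and none fell, beside the same 21.8%, 12.2% and 35.1% of all features. The medians were 0.24, 0.17 and 0.41, against -0.04, -0.01 and -0.03 over all features. Tnfaip3, the ubiquitin-editing inhibitor A20 of NF-κB signalling, rose by 1.05 ± 0.13, 0.79 ± 0.13 and 2.17 ± 0.13 with IFNγ, opsonised cells and both. Traf1, a TRAF adaptor, was at least 2.86-fold higher with both stimuli (fitted log2 change 1.61 ± 0.12) and was the 1 gene of this list called in the interaction (1.09 ± 0.17). No unstimulated array of Traf1 passed the floor, so the fitted 0.25 with opsonised cells that enters its interaction has an unmeasured baseline. Tnip1, which binds A20, fell by 0.48 ± 0.11 on the log2 scale with IFNγ and rose by 0.45 ± 0.11 with opsonised cells.

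Of 21 signalling genes of interleukin receptors, 17 were tested. With IFNγ 10 rose and 2 fell, with opsonised cells 1 rose and 2 fell, and with both 10 rose and none fell, where 21.8%, 12.2% and 35.1% of all features were called. The medians were 0.58, 0.01 and 0.89, against -0.04, -0.01 and -0.03 over all features. Socs3, the feedback inhibitor of IL-6-type receptors, rose by 3.98 ± 0.11 with IFNγ and by 4.41 ± 0.11 with both. Stat3, the transcription factor downstream of the IL-10 receptor, rose by 1.74 ± 0.11 and 1.40 ± 0.11. The feedback inhibitor gene Cish rose by 1.95 ± 0.13 with both, and it was called in the interaction (0.91 ± 0.18) together with Stat4 (0.90 ± 0.17).

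Of 22 genes of further cytokine receptors and their ligands, 14 were tested. With IFNγ 3 rose and 2 fell, with opsonised cells 1 rose and 1 fell, and with both 7 rose and 2 fell, against 21.8%, 12.2% and 35.1% of all features called. Medians were 0.04, 0.08 and 0.21, beside -0.04, -0.01 and -0.03 over all features. Csf2rb2, the IL-3-specific beta chain of the mouse and partner of Il3ra, rose by 1.38 ± 0.14 with IFNγ and by 1.43 ± 0.14 with both, and Csf2rb, the common beta chain, by 0.69 ± 0.12 and 0.82 ± 0.12. Ifngr1, the ligand-binding chain of the IFNγ receptor, fell by 0.91 ± 0.11 with IFNγ, by 0.56 ± 0.11 with opsonised cells and by 1.17 ± 0.11 with both on the log2 scale. Osm, which encodes the gp130 ligand oncostatin M, fell by 0.45 ± 0.12 with IFNγ on that scale and rose by 0.53 ± 0.12 with opsonised cells. These lists were chosen with earlier results of these arrays known, so their counts are descriptions.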

How the data were processed

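The values are intensities of 25697 probes on 8 Illumina MouseRef-8 v2.0 BeadChip arrays, used as deposited. The authors made them with GenomeStudio, a tool named in the submitters' processing notes, with version and settings not given in the sources used here. Once sorted, values of equal rank varied by no more than 0.96% among arrays, so the values had been normalized between arrays, and the lowest was 119.8 and the most frequent 175, so background had not been subtracted. Arrays of 1 group correlated at 0.992 to 0.994 and arrays of different groups at 0.952 to 0.984. Another deposited table was left out, because its 16 columns match no sample's labels.

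Groups and replicate numbers came from the sample titles. Nothing says that replicates are separate mice or cultures, and the spread behind the p-values is that of these arrays and may be technical. The number of arrays limits the precision, and an exact permutation test of 2 against 2 arrays cannot go below 0.333.

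The array annotation gave 1 symbol for 23978 probes and none for 1719, 23962 of its gene identifiers were in the RefSeq table, and 0 symbols changed. Each gene was read by its brightest probe over 8 arrays. limma 3.58.1 in R 4.3.3 was fitted to log2 intensity of 9341 features of 18312 with 4 group means (lmFit, eBayes with an intensity trend, 4 residual and 22.6 total degrees of freedom), and Benjamini-Hochberg adjustment ran over all features in each of 6 comparisons. The script was tested on simulated data. Lower bounds divide the brighter group's mean by that of the dim group, with dim arrays raised to the floor.

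By rule, 11 genes are given and plotted array by array: those called with an absolute log2 change of at least 1 against unstimulated cells or in the interaction, or among the 5 highest mean intensities. Array values of 5 more (Il10rb, Il16, Il6ra, Tnfrsf1b and Il4i1) were added after their values were seen. Up to 4 called genes per pathway list and comparison are named. Members, lists and the floor were chosen with earlier results of these data known. Promoters are RefSeq's, build GRCm38.p6.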

Additional observations from a re-analysis of the deposited data

Results flagged for a closer look

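The response to opsonised red cells differed between macrophages with and without IFNγ for 3 genes, by the test of that difference (limma's interaction term, 2 arrays per group, Benjamini-Hochberg over 9341 features). Il27 had an interaction of 0.93 ± 0.19 (adjusted p = 0.00765), with a log2 change of 1.04 when opsonised cells were added to IFNγ and a fitted 0.12 when they were added to unstimulated cells, where all 4 arrays lay under the floor and give no measured change. Il15ra had 0.84 ± 0.17 (adjusted p = 0.00712), from 0.70 and a fitted -0.14, with opsonised arrays under the floor and unstimulated arrays at it. Il15 had 0.74 ± 0.16 (adjusted p = 0.00877), from 0.41 and -0.32. In each case both arrays with both stimuli lay above both arrays with IFNγ alone. Leaving out single arrays gave adjusted p up to 0.0947 for Il27, 0.0515 for Il15ra and 0.0667 for Il15. The 3 probes of Il15 gave 0.74 to 0.91, and the 4 probes of Il15ra 0.25 to 0.84.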

How the results depend on the processing

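Across 17 alternative analyses, 16 planned and 1 chosen after seeing the data, 43 gene values in single comparisons were recomputed. Of 731 such values, 666 kept direction and side of the threshold, 63 kept direction but missed it, and 2 turned: centred on the median level of housekeeping genes, the change with IFNγ was -0.07 for Il15 and -0.26 for Il15ra. That level was the level of Hprt, which was 9716 to 13654 with IFNγ, against 6616 to 7155 in unstimulated cells. This centring moved the median of all features to -0.79 (IFNγ), -0.24 (opsonised cells), -0.8 (both), -0.03 (both over IFNγ), -0.58 (both over opsonised cells) and 0.2 (interaction). The genes called in the same order were then 30, 0, 31, 1, 17 and 0, in place of 17, 4, 19, 8, 18 and 3, and the higher and lower ones 4 and 26 with IFNγ, 3 and 28 with both, and 6 and 11 for both over opsonised cells. Centring on the median deviation of the same 7 genes, the analysis added later, gave 15, 4, 18, 7, 16 and 3. Leaving out 1 array at a time gave 10 to 17, 2 to 5, 17 to 20, 4 to 9, 13 to 18 and 1 to 3. Cyclic loess gave 16, 5, 19, 7, 17 and 3, and moved the higher and lower features among all 9341 to 1007 and 839 with IFNγ, in place of 883 and 1154, to 1612 and 1529 with both, in place of 1355 and 1923, and to 1231 and 1192 for both over opsonised cells, in place of 1060 and 1518. The replicate block gave 17, 4, 20, 8, 18 and 3. Deviations of same-numbered arrays correlated at -0.04 to 0.044 over 6 pairs of groups, so the numbers were not taken to pair the samples. Causes of these moves were not tested. Arrays with signal near 200 limit what can be called, and 20 of the 42 genes never reached 300.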
